A study of Homo sapiens with 6 samples.

Results

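Genes that interferon induces, together with genes that present peptides on MHC class I, were read in RNA-seq libraries of Ishikawa cells, an estrogen-responsive line from an endometrial adenocarcinoma. The group was chosen by name, with earlier results of these data known, so shares of members set against all genes are not from an independent list. It comprised 37 gene symbols of the 26364 in the deposited count table, all of which were present in it. The study compared the parental line with 2 clones in which ETV4, an ETS family transcription factor gene, had been knocked out. There were 6 libraries: for each of these 3 lines, 1 of cells given 10 nM E2, the estrogen 17β-estradiol, and 1 of cells given 0.1% DMSO, its vehicle. All 6 came from cells that had first been held in hormone-depleted medium, and none was treated with an interferon according to the labels. The protocol gives 8 h of treatment and the sample characteristics give 1 h, and the files do not settle which holds. Each clone is a single cell line, so the difference between a knockout and the parental line cannot be told apart from differences that arose in that clone. The libraries of a line are not described as separate cultures, and p-values therefore measure only the spread between these libraries.

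Totals ran from 28037392 to 36829479 counts per library, with 17755 to 18658 genes detected. ETV4 had 586 to 1063 counts in the parental libraries and 71 to 122 in the clones, where its level averaged 12.4% ± 3.42 (SD, n = 4 libraries) of the parental one. The 8 epithelial markers on a chosen list were all detected, with a summed level of 2096 to 3063 CPM (counts scaled to library size). The leukocyte list reached only 3.26 to 5.81 CPM summed over 12 genes, of which 4 had 0 counts everywhere, and PTPRC, the pan-leukocyte gene, had 1 to 5 counts. Summed endothelial markers reached 1.92 to 4.89 CPM and summed fibroblast and stromal markers 51.6 to 88.6 CPM. Most of the stromal sum was COL1A1, at 44.8 to 75.2 CPM, followed by ACTA2 at 3.84 to 15.0. On the same list DCN, LUM and PDGFRB had 0 to 3 counts, PDGFRA 3 to 16, COL1A2 3 to 27 and THY1 22 to 68. Levels below are CPM scaled by the trimmed mean of M-values (TMM), and 3 counts correspond to 0.0815 to 0.107 CPM before that scaling. In bulk RNA, a smaller share of cells expressing a gene and less RNA per cell cannot be told apart.

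Type I and type III interferons act through receptors whose kinases, of the JAK family, phosphorylate transcription factors such as STAT2. With IRF9, STAT2 belongs to a complex that binds the interferon-stimulated response element in the promoters of target genes. Interferon-γ instead acts through gamma-activated sites, and IRF1 then carries part of the response. Epithelial cells also keep a basal level of these genes without added interferon, and in many tissues they present peptides on class I molecules made of an HLA heavy chain and β2-microglobulin. By role, the 37 genes were 2 sensors of viral RNA, 4 transcription factors, 19 antiviral effectors, 4 genes of the ISG15 system with PARP9, 4 genes that make and transport peptides, and 4 chains of MHC class I.

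The response element joins most of these genes at the level of sequence, and 7 promoter stretches are shown because their genes carry the levels described further on. RefSeq promoter windows of the GRCh38.p14 build, from 250 bases before to 50 after the transcription start, were matched to 30 of the 37 genes. The element was searched as GAAANNGAAA on both strands. Each stretch is written 5′ to 3′ on the strand of its gene, and capitals mark the matches, in reverse complement where the element lies on the other strand.
ISG15, chr1:1013364-1013423, plus strand: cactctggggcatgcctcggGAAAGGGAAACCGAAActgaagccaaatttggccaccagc
IFIT1, chr10:89392487-89392546, plus strand: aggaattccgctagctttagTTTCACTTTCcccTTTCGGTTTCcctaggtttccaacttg
IFIT3, chr10:89327821-89327889, plus strand: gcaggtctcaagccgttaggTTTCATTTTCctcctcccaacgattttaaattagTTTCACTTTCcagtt
IFI27, chr14:94110608-94110667, plus strand: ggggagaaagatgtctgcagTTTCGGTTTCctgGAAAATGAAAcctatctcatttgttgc
IFITM3, chr11:320873-320932, minus strand: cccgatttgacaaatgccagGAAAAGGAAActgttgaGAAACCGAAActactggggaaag
BST2, chr19:17405721-17405780, minus strand: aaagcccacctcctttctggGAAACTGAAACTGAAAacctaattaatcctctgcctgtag
B2M, chr15:44711353-44711412, plus strand: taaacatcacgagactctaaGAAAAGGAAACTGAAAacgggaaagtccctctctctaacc
BST2, B2M and ISG15 each held a run of overlapping matches, in which 1 pair of repeats shares a GAAA with the next. In IFI27 a match on each strand stood close together, and IFIT1 and IFIT3 held theirs on the other strand.

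At least 1 match lay in 19 of the 30 windows, or 63.3%, against 554 of 17307 windows of all genes of the table with one, or 3.2%. The gamma-activated site, searched as TTCNNNGAA, which reads alike on both strands, was found in 7 of 30, or 23.3%, against 1237 of 17307, or 7.15%. No match to the response element lay in the windows of STAT2, IRF1, IRF9, DDX58, IFI35, OAS1, PARP9, PSMB8, PSMB9, HLA-B and HLA-C. That says only that these letters are not in those 300 bases.

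**Figure D1:**
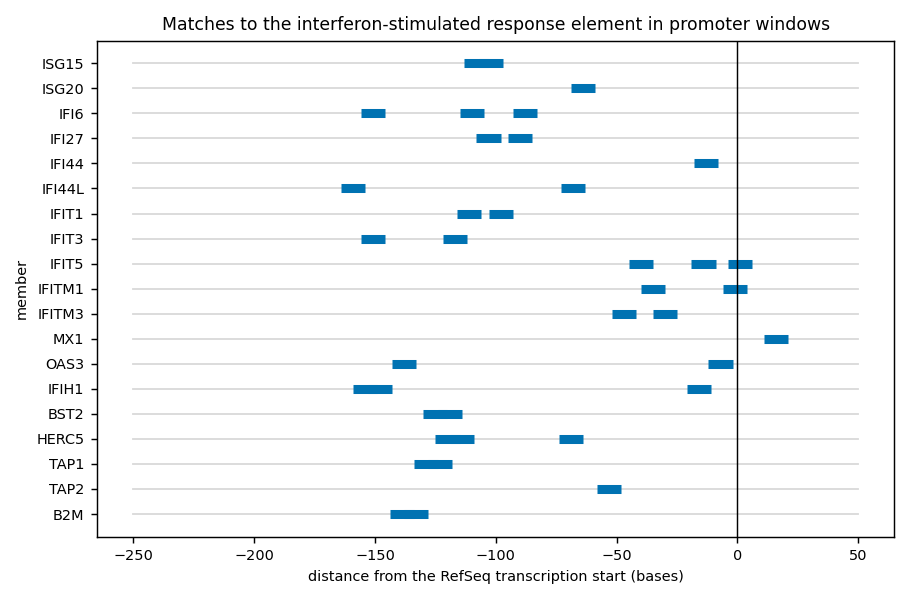
Position of each match to the interferon-stimulated response element (blue bars) in the promoter windows of the 19 members that hold one, in bases from the RefSeq transcription start (black line, 0). Grey lines span the window searched, from 250 bases before to 50 after the start, and nearly all matches lie before the start.

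Not every member could be read. Of the 37 genes, 28 had at least 1 count and 27 passed the filter on low counts that left 15611 genes for testing. The 9 genes listed at 0 in every library were OAS1, OAS2 and OAS3, which make the activator of RNase L, PARP9, the peptide transporter genes TAP1 and TAP2, the immunoproteasome genes PSMB8 and PSMB9, and HLA-E. IFIH1, which encodes the RNA sensor MDA5, had 3 counts in clone 1 with E2 and 0 in the other libraries. The peptide processing and transport group was therefore not measured at all here.

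Zeros were frequent across the MHC region, from GABBR1 to KIFC1 in RefSeq order. There, 99 of 143 protein-coding genes, or 69.2%, were listed at 0 in every library, against 2362 of 18843 elsewhere, or 12.5%. The zeros included GNL1, ABCF1, DDX39B, BAG6 and FLOT1, which are broadly expressed genes, and RPS18, a ribosomal protein gene, had at most 1 count. TUBB in the same region had 451 to 772 counts and CSNK2B had 216 to 323. Of the 7 members in this region, 5 were listed at 0, and these zeros are not read as absence of the transcript. HLA-B and HLA-C, which did have counts, lie in the same region, and their levels carry the same limit. Outside it, RPL6 with 32158 to 58121 counts, PTPN11 with 5560 to 12848 and DTX1 with 38 to 127 lie next to or near the OAS genes. RPH3A, directly beside OAS1, had 0 or 1. KPNA1 had 2953 to 4265 counts beside PARP9, while DTX3L and PARP14, its interferon-inducible neighbours, had 0 to 2. PARP15, which lies between DTX3L and PARP14, had 0 in every library. For a gene at 0, 3 counts are the upper limit that counting error allows, which says nothing of reads that the counting left out.

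**Figure D2:**
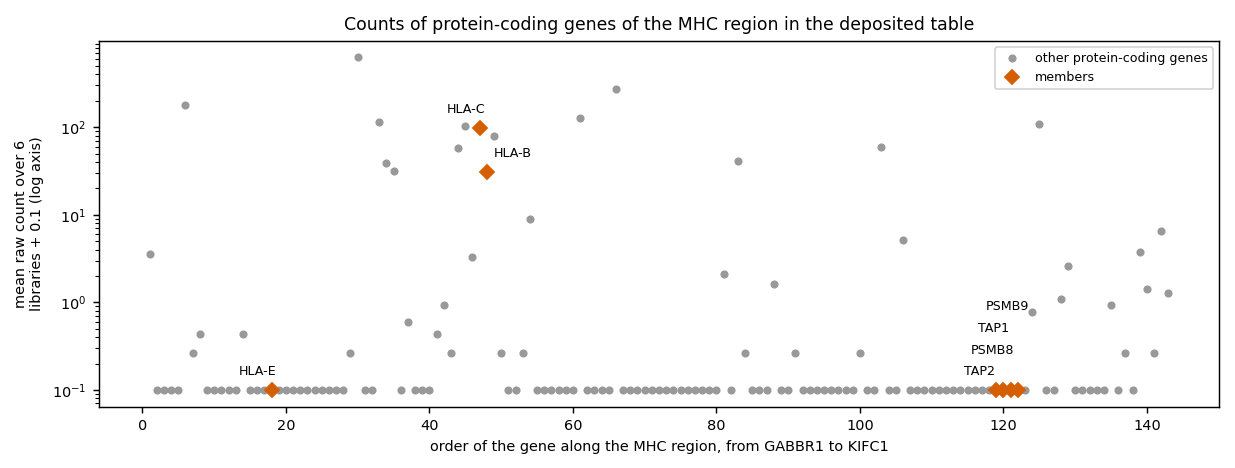
Mean raw count over the 6 libraries plus 0.1 (log axis) of 143 protein-coding genes in their order along the MHC region, with members as orange diamonds and other genes as grey points. Of the members, HLA-B and HLA-C stand above the floor and the other 5 lie on it, with most of the other genes.

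The sensor and the transcription factors were measured in every library. DDX58, which encodes the RNA sensor RIG-I, was at 16.8 CPM in both parental libraries, at 15.9 in DMSO and 16.8 in E2 in clone 1, and at 13.6 and 13.1 in clone 2. Clone 2 was thus the lowest line, and E2 and DMSO lay close together within each line. STAT2, a transcription factor of the type I response, stood at 52.0 CPM in DMSO and 72.3 in E2 in the parental line, at 63.8 and 71.6 in clone 1, and at 97.8 and 98.8 in clone 2. Both libraries of clone 2 lay above all others. IRF9, which binds DNA in the complex with STAT2, was at 4.202 and 9.81 CPM in parental DMSO and E2, at 4.996 and 8.23 in clone 1, and at 8.20 and 11.4 in clone 2. IRF9 was higher with E2 in each line, and clone 2 in DMSO was about level with clone 1 in E2.

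IRF7, which drives interferon genes, was at 3.09 and 4.12 CPM in the parental libraries, at 4.66 and 5.24 in clone 1, and at 6.01 and 6.70 in clone 2. Its libraries thus fell in the order parental, clone 1, clone 2 without overlap. IRF1, a factor best known from the interferon-γ response, was at 5.95 and 6.33 CPM in the parental libraries, at 7.62 and 8.40 in clone 1, and at 7.17 and 8.23 in clone 2. Both clones lay above the parental line and overlapped each other.

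Among the antiviral effectors, the IFITM genes encode membrane proteins that hinder the entry of enveloped viruses. IFITM3 was at 119 CPM in DMSO and 70.6 in E2 in the parental line, at 82.8 and 54.7 in clone 1, and at 49.3 and 41.8 in clone 2. IFITM1 ran from 18.2 and 8.23 CPM in the parental line through 7.51 and 4.80 in clone 1 to 4.75 and 3.18 in clone 2. IFITM2 stood at 43.2 and 27.4 CPM in the parental line, at 40.6 and 26.0 in clone 1, and at 26.3 and 22.8 in clone 2. In all 3 the E2 library of a line lay below its DMSO library, and the parental DMSO library was the highest of the 6. The IFITM genes are close in sequence, so reads could be split between them by the counting.

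IFIT proteins bind viral RNA and block its translation. IFIT1 had 3.83 and 2.27 CPM in parental DMSO and E2, 2.82 and 1.03 in clone 1, and 1.81 and 0.888 in clone 2, or 26 to 114 counts. IFIT3, its binding partner, had 4.24 and 2.41 CPM in the parental line, 2.23 and 1.85 in clone 1, and 1.88 and 2.02 in clone 2. Both parental libraries of IFIT3 lay above all 4 of the clones, whereas for IFIT1 clone 1 in DMSO lay above parental E2. IFIT2 ranged from 1.78 CPM in clone 2 with E2 to 3.53 in parental DMSO, and IFIT5 had 0 to 16 counts.

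BST2, or tetherin, holds budding virions at the cell surface. Its level was 17.3 CPM in DMSO and 9.67 in E2 in the parental line, 9.29 and 7.06 in clone 1, and 8.06 and 8.30 in clone 2. All clone libraries lay below both parental ones, and only in clone 2 was E2 not below DMSO. IFI44L was at 10.0 and 5.45 CPM in the parental line, at 8.21 and 4.83 in clone 1, and at 4.78 and 3.14 in clone 2. IFI44, its neighbour on the chromosome and its paralog, was at 8.64 and 3.77, at 7.62 and 5.24, and at 5.70 and 4.75 CPM in the same order. Both genes were lower with E2 in each line.

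The remaining effectors had at most 76 counts in any library. IFI6 had 2.19 CPM in parental DMSO and 0.668 in parental E2, with 1.79 and 1.23 in clone 1 and 1.61 and 1.30 in clone 2. IFI27 had 1.04 and 0.722 CPM in the parental line, 1.40 and 1.27 in clone 1, and 1.23 and 1.47 in clone 2. Both encode small membrane proteins, and IFI27 in every clone library lay above both parental ones. MX1, a dynamin-like GTPase used as a standard marker of the interferon response, had 0.706 and 1.02 CPM in the parental line, 2.12 and 1.92 in clone 1, and 1.503 and 0.820 in clone 2. IFI35 ranged from 0.446 to 0.991 CPM. ISG20, an exonuclease gene, had 0 to 17 counts and OASL had 3 to 22, so that a few reads set their ratios.

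ISG15 is a ubiquitin-like protein that HERC5 attaches to other proteins and USP18 removes. ISG15 was at 2.12 and 1.23 CPM in parental DMSO and E2, at 2.04 and 1.89 in clone 1, and at 1.23 and 1.57 in clone 2, and the lines overlapped. HERC5 was at 1.45 and 2.54 CPM in the parental line, at 3.68 and 4.42 in clone 1, and at 4.47 and 3.76 in clone 2, so that every clone library lay above both parental ones. USP18, which also restrains signalling at the interferon receptor, ran at 7.63 and 7.30 CPM, 6.28 and 6.44, and 7.72 and 12.6 in the same order. Clone 2 with E2 stood above the other 5 libraries, which lay between 6.28 and 7.72.

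β2-microglobulin, the light chain of class I molecules, is the partner of every HLA heavy chain. B2M was at 398 CPM in DMSO and 190 in E2 in the parental line, at 288 and 262 in clone 1, and at 242 and 298 in clone 2. Parental E2 was its lowest library and parental DMSO its highest. HLA-C, a class I heavy chain, had 4.94 and 2.00 CPM in the parental line, 4.05 and 1.58 in clone 1, and 3.14 and 2.90 in clone 2. HLA-B had 55 and 31 counts in the parental line, 57 and 17 in clone 1, and 20 and 5 in clone 2, or 0.171 to 1.85 CPM. HLA genes share sequence and vary between people, so their reads could be split or lost.

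**Figure D3:**
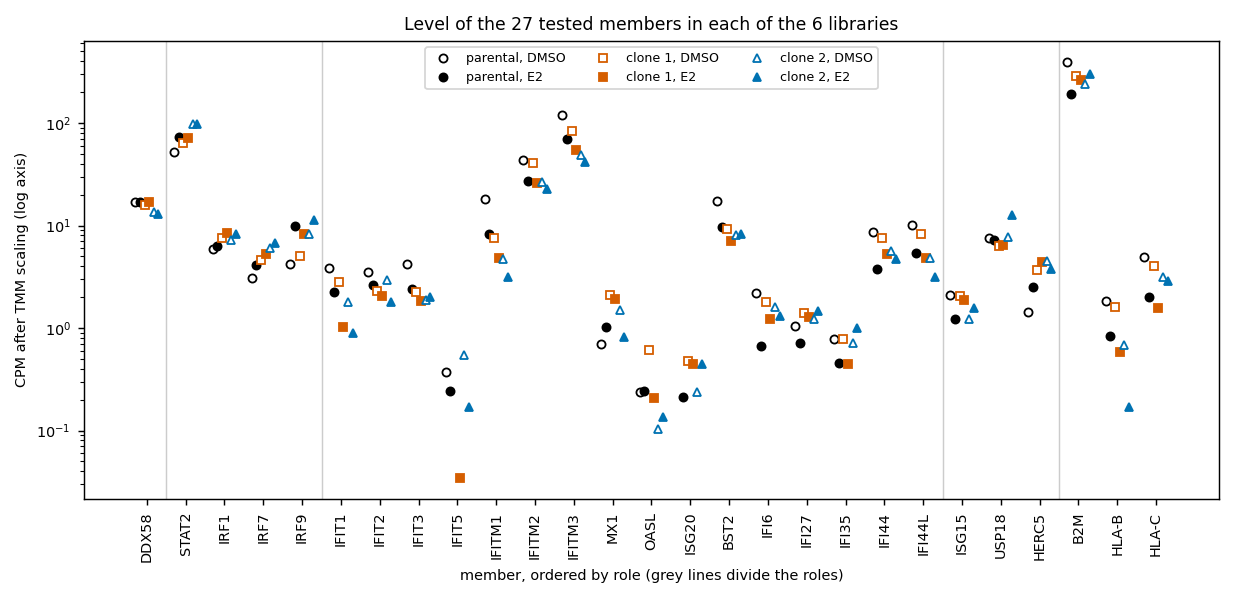
CPM after TMM scaling (log axis) of the 27 tested members in each library, ordered by role, with open symbols for DMSO and filled symbols for E2 (circles, parental; squares, clone 1; triangles, clone 2). Libraries at 0 counts (IFIT5 in clone 1 DMSO, ISG20 in parental DMSO) are not drawn. IRF7 and IRF9 have filled symbols above open ones in each line, and the IFITM genes the reverse.

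The E2 comparison asks how the genes differed between hormone and vehicle over the 3 lines. Of the 27 tested members, 10 lay lower in the E2 library than in the DMSO library of every line, or 37.0%, against 25.1% of all tested genes. They were IFI6, IFI44, IFI44L, IFIT1, IFIT2, IFITM1, IFITM2, IFITM3, HLA-B and HLA-C, all effectors or class I chains. Of the 8 among them with a promoter window, 6 held the response element, and HLA-B and HLA-C did not, against 19 of the 30 windows of all members. The 4 members higher with E2 in every line were the transcription factors STAT2, IRF1, IRF7 and IRF9, or 14.8%, against 27.8% of all genes. The 3 of them with a window held no match. In the knockout comparison given below, a match lay in 3 of 4 windows of the members higher in all clone libraries and in 3 of 3 of those lower. Between the clones it lay in 1 of 2 windows of the members higher in clone 2 and in 6 of 7 of those lower. Whether the element goes with direction was not tested. Scaled by library totals, the 10 members lower with E2 stayed the same, while STAT2 left those higher with E2 and USP18 entered.

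No member passed the test over the lines. The quasi-likelihood test of edgeR, adjusted by Benjamini-Hochberg, called 176 of 15611 genes, or 1.13%, and 0 of the 27 members. Unadjusted p-values below 0.05 were found for 10 members and for 20.4% of all genes, and limma-voom called 174 genes and 0 members. DESeq2 called 1 of the 24 members it gave an adjusted p, IFIT1, and 7.58% of all genes. The median log2 difference of the members was -0.34, with 19 lower and 8 higher, and that of all genes was -0.02. Among members at 2 CPM or more, the largest differences downward were -1.09 (SE 0.29, edgeR adjusted p = 0.138) for IFIT1, -0.89 (SE 0.31, adjusted p = 0.197) for HLA-C, -0.80 (SE 0.27, adjusted p = 0.187) for IFITM1 and -0.76 (SE 0.27, adjusted p = 0.205) for IFI44L. The largest upward difference among the same members was that of IRF9, 0.79 (SE 0.27, adjusted p = 0.194). USP18 at 0.27, HERC5 at 0.26 and IRF7 at 0.24 followed, with adjusted p-values of 0.589, 0.571 and 0.518, and the sign turned for USP18 when clone 2, or its E2 library alone, was left out (-0.01 and -0.094) and for HERC5 when the parental line, or its DMSO library alone, was (-0.004 and -0.012). Corrected for GC content and length, IRF7 was at 0.06.

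The count of members called differed when clone 2 was left out. Then edgeR called 12 of 27 members and 21.6% of all genes. These were IRF9, higher, and IFI6, IFI44, IFI44L, IFIT1, IFITM1, IFITM2, IFITM3, BST2, B2M, HLA-B and HLA-C, lower. With only the DMSO library of clone 2 left out, IFI44L, IFIT1, IFITM1, IFITM2, IFITM3 and IRF9 were called, with 10.9% of all genes. With line as a replicate block, 2.46% of all genes and 0 members were called. In that fit, which pairs the libraries of a line, the lowest edgeR adjusted p-values of members were 0.0637 for IFI44L and 0.0647 for HLA-B. IFITM1 at 0.0720 and IFIT1 at 0.0726 came next, all 4 lower with E2, and then IRF9, higher, at 0.0820. The other members had 0.0987 or more.

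Line by line, the median log2 ratio of E2 to DMSO over the members was -0.65 for parental cells, -0.15 for clone 1 and -0.06 for clone 2, with 19, 19 and 14 of 27 below 0. Over all tested genes it was near 0 in each. Correcting for GC content and length left -0.62, -0.22 and -0.05. Scaled by library totals, the median of all genes in the parental line moved to 0.17 and that of the members to -0.48. Each line has 1 pair of libraries, so these medians have no replicate check, and the difference between lines was tested only gene by gene, as given further on.

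By role, the median for the 16 tested effectors was -0.72 in the parental line, -0.52 with clone 1 and -0.25 with clone 2. For the 4 transcription factors it was 0.44, 0.17 and 0.18. The 3 class I chains had -1.10, -1.33 and -0.11, and the 3 tested genes of the ISG15 system -0.06, 0.04 and 0.34. Summed over the effectors, the level was 233 CPM in parental DMSO and 136 in parental E2, 170.5 and 113 in clone 1, and 111.5 and 94.0 in clone 2. The summed level of the epithelial markers moved the same way with E2, from 3063 to 2318 CPM in the parental line, from 2726 to 2101 in clone 1 and from 2877 to 2096 in clone 2. KRT8 alone went from 1127 to 753 CPM in the parental line. The list did not move as a whole, since MUC1 was higher with E2 in each line. CDH1 rose from 445 to 494 CPM in the parental line and from 309 to 364 in clone 1. The other markers were lower in each line. The part of the epithelial levels in the result was not tested.

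**Figure D4:**
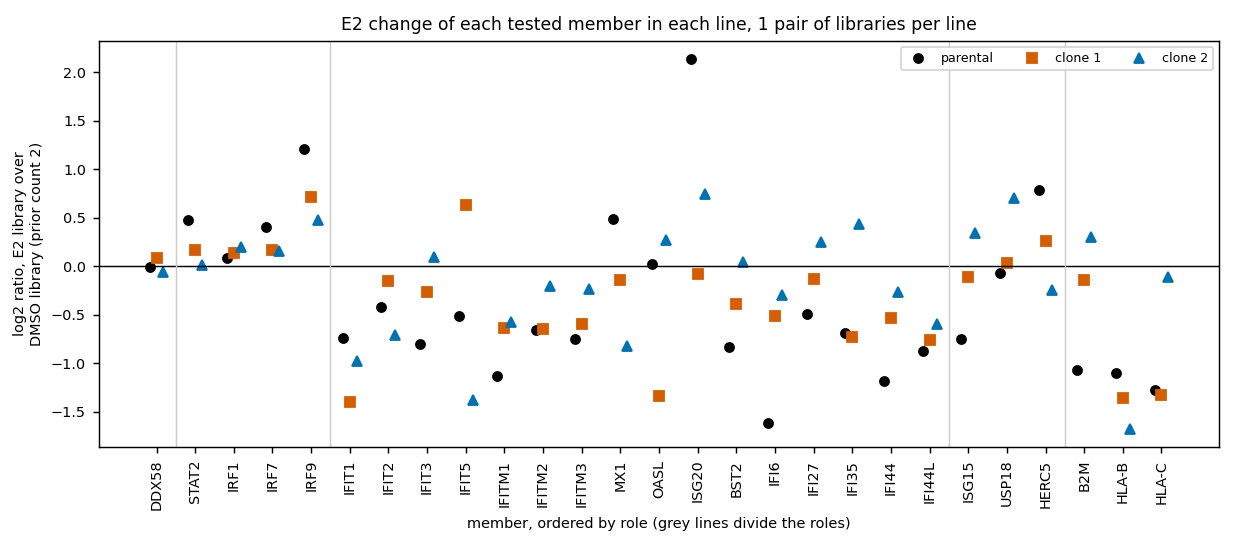
log2 ratio of the E2 library to the DMSO library of the same line (prior count 2) for each tested member, ordered by role, with circles for the parental line, squares for clone 1 and triangles for clone 2. Most effectors lie below 0, the 4 transcription factors lie above 0 (STAT2 not in every line when scaled by library totals), and B2M is at -1.07, -0.14 and 0.30 in the 3 lines.

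The knockout comparison asks how the clones differed from the parental line over both treatments. In all 4 clone libraries IRF1, IRF7, IFI27, ISG20 and HERC5 lay above both parental libraries. These 5 made up 18.5% of the tested members, against 8.53% of all tested genes. ISG20 met the rule only after scaling, with 7 counts (0.239 CPM) in clone 2 DMSO and 8 counts (0.214 CPM) in parental E2. IFIT3, IFITM1 and BST2 lay below in all 4, or 11.1%, against 7.82%. The effectors thus stood on both sides.

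edgeR's quasi-likelihood test called 51 genes, or 0.327%, and 0 members, with unadjusted p-values below 0.05 for 7 members and 11.4% of all genes. limma-voom called 57 genes and 0 members, and DESeq2 called IFITM1 with 2.97% of all genes. The median log2 difference was -0.01 over the members, 13 higher and 14 lower, and 0.01 over all genes. IFITM1 had the largest difference among members at 2 CPM or more, -1.32 (SE 0.27, edgeR adjusted p = 0.148). IFIT1 followed at -0.98 (SE 0.29, adjusted p = 0.304), then IFITM3 at -0.70 (SE 0.23, adjusted p = 0.337) and IFIT3 at -0.69 (SE 0.26, adjusted p = 0.397). On the other side HERC5 reached 1.06 (SE 0.28, adjusted p = 0.257), ahead of IRF7 at 0.66 (SE 0.23, adjusted p = 0.369), STAT2 at 0.43 (SE 0.23, adjusted p = 0.493) and IRF1 at 0.35 (SE 0.17, adjusted p = 0.467). Without parental DMSO, HERC5 moved to 0.68, IFIT3 to -0.32 and STAT2 to 0.23. Without clone 2, STAT2 was at 0.14 and IFITM3 at -0.44.

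Each clone alone gave other calls. Without clone 1, 4 of 26 members were called, IFIT1, IFITM1, IFITM3 and HLA-B, all lower in clone 2 than in the parental line, with 4.09% of all genes. Without clone 2, 5 of 27 were called, with 6.41% of all genes. These were IFIT5, IFITM1 and BST2, lower in clone 1, and MX1 and HERC5, higher. Each fit has 1 residual degree of freedom and leans on the spread shared across genes.

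Against the parental library of the same treatment, 6 of 27 members (22.2%) differed by at least 2-fold in clone 1 in DMSO, against 8.68% of all genes. In clone 2 it was 10 (37%), against 15.6%. In E2 the counts were 2 (7.41%), against 6.75%, and 4 (14.8%), against 6.15%. Low counts enter these tallies. Of the 6, ISG20, IFIT5, OASL and MX1 had 17, 0, 22 and 76 counts in clone 1 DMSO, against 0, 11, 7 and 21 in parental DMSO. The others were IFITM1 and HERC5. The median log2 ratio of the members was -0.18 in clone 1 and -0.43 in clone 2 in DMSO, and -0.08 and 0.22 in E2, while that of all genes ran from 0.004 to 0.02. Scaled by library totals, the DMSO medians became -0.01 and -0.22, and those of all genes 0.17 and 0.24. The effectors had medians of -0.28 and -0.65 in DMSO and -0.17 and -0.28 in E2. The transcription factors had 0.33 and 0.93 in DMSO and 0.16 and 0.41 in E2. Both clones were divided by the same parental library, which they share as control, so the medians of the clones are not independent of each other.

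**Figure D5:**
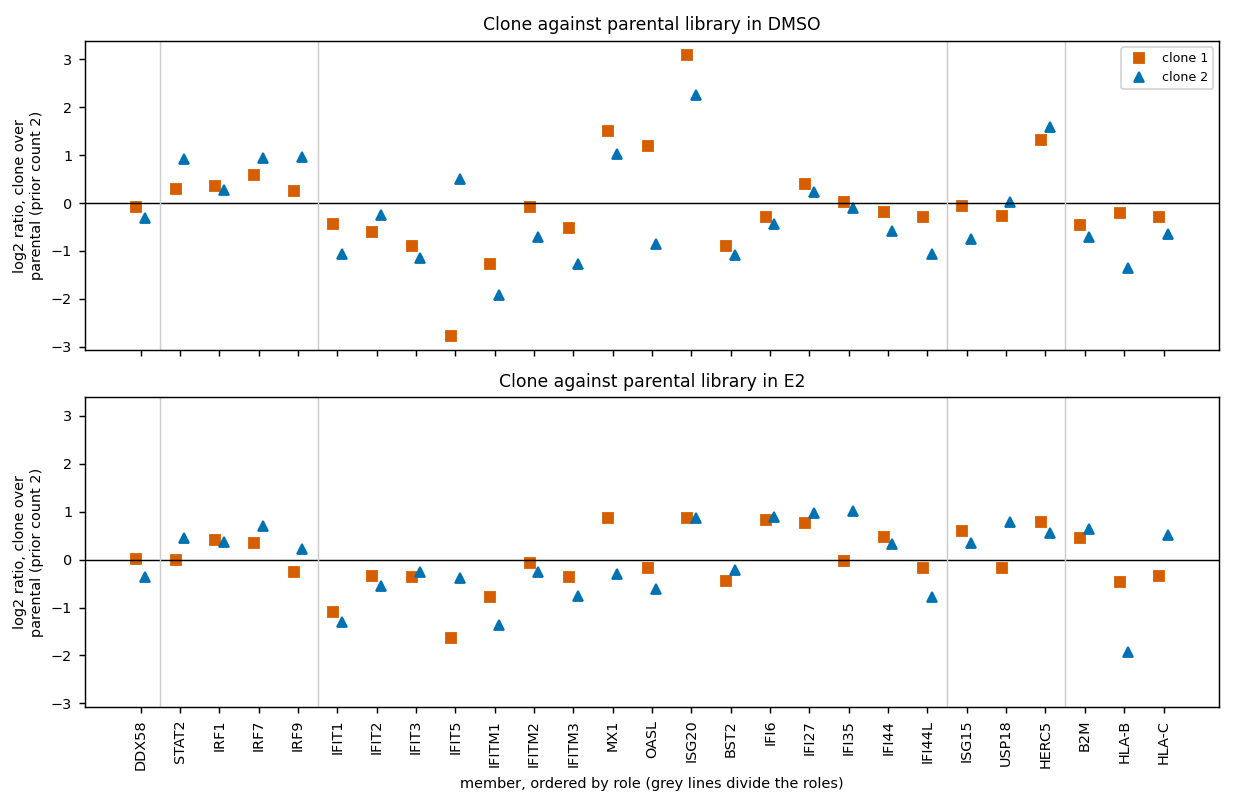
log2 ratio of a clone's library to the parental library of the same treatment (prior count 2) for each tested member, in DMSO (top) and in E2 (bottom), with squares for clone 1 and triangles for clone 2. In DMSO, IFITM1 stands at -1.27 and -1.92 and HERC5 at 1.31 and 1.59, and IFIT5 and ISG20 rest on few counts.

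The clones were also set against each other, with the DMSO and E2 library of each as samples. Both libraries of clone 2 lay above both of clone 1 for STAT2, IRF7, USP18 and IFIT5, or 14.8% of members, against 22.3% of all genes. They lay below for ISG15, IFI44L, IFITM1, IFITM3, OASL, ISG20, MX1 and DDX58, or 29.6%, against 24.2%. Scaled by library totals, IFI44L, IFITM1 and ISG20 left the lower ones and IRF9 joined the higher ones, and with median-ratio size factors ISG20 alone left.

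edgeR's quasi-likelihood test called 136 genes, or 0.871%, and 0 members, with unadjusted p-values below 0.05 for 9 members and 12.1% of all genes. DESeq2 called 369 genes and limma-voom 121, with 0 members in either. Among members at 2 CPM or more, those lower in clone 2 were led by IFI44L at -0.70 (SE 0.19, edgeR adjusted p = 0.224), IFITM1 at -0.63 (SE 0.22, adjusted p = 0.330), IFITM3 at -0.56 (SE 0.17, adjusted p = 0.267) and IFIT1 at -0.47 (SE 0.29, adjusted p = 0.546). Those higher were led by USP18 at 0.65 (SE 0.24, adjusted p = 0.357), IRF9 at 0.60 (SE 0.22, adjusted p = 0.369), STAT2 at 0.54 (SE 0.16, adjusted p = 0.265) and IRF7 at 0.36 (SE 0.19, adjusted p = 0.503), or 0.17 when corrected for GC content and length. Without clone 2 in DMSO, USP18 moved to 0.99, IRF9 to 0.35 and IFITM3 to -0.35. USP18 was at 0.27 without clone 2 in E2, and IFIT1 was at -0.12 without clone 1 in DMSO and -0.71 without clone 1 in E2. With the parental line left out, 9 of 25 members were called, with 18.3% of all genes. STAT2, IRF9 and USP18 were then higher in clone 2, and IFI44L, IFITM1, IFITM2, IFITM3, MX1 and HLA-B lower.

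Whether the E2 difference itself differed between the clones and the parental line was tested by the interaction of treatment and genotype. No gene of 15611, or 0%, passed edgeR's quasi-likelihood test, while 2 members and 7.62% of all genes had an unadjusted p below 0.05. limma-voom called 0 genes. The 4 members with the largest positive interaction at 2 CPM or more were B2M, IFI44, IFIT3 and BST2, at 1.14, 0.78, 0.73 and 0.66 on the log2 scale. Those with the largest negative one were HERC5, IRF9, IFIT1 and STAT2, at -0.81, -0.64, -0.52 and -0.40. Their adjusted p-values from edgeR ran from 0.617 to 0.790. Corrected for GC content and length, IFI44 was at 0.40. Without clone 1 in DMSO, IRF9 moved to -0.98, IFIT1 to -0.18 and STAT2 to -0.70. Without clone 2 in DMSO they moved to -0.25, -0.80 and -0.06.

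Whether the interaction of B2M was called depended on the fit. Its E2 log2 ratio stood at -1.07 for the parental line, -0.14 for clone 1 and 0.30 for clone 2, an interaction of 1.14 (SE 0.29, edgeR adjusted p = 0.617). With line as a replicate block it was again 1.14, with an edgeR adjusted p of 0.000463, and 15.8% of all genes were called, B2M alone among the 27 members. That fit has 1 residual degree of freedom and takes the spread of each gene wholly from that shared across genes, with no part from the gene itself. With the GC and length correction added to it, BST2 was called beside B2M, among 2042 genes. DESeq2 gave 1.15 (adjusted p = 0.0276), called 1.46% of the genes it gave an adjusted p and gave one to no other member. The parental line has 1 library per treatment, so the value rests on that pair.

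The rest of the pathway was read from chosen lists outside the members. Of 24 interferon genes, 21 were in the table, 19 had 0 counts in every library, IFNA21 had 2 counts in parental DMSO, and IFNE had 0 to 2 counts. IFNB1 and IFNG had none. The receptors were detected, IFNAR1 at 95.2 to 115 CPM, IFNAR2 at 16.1 to 23.1, IFNGR2 at 42.2 to 58.0 and IFNLR1 at 15.6 to 21.1. IFNGR1 was at 82.4 CPM in DMSO and 40.1 in E2 in the parental line, at 60.9 and 53.3 in clone 1, and at 45.6 and 50.02 in clone 2, highest in parental DMSO and lowest in parental E2. None of the 10 tested genes of receptors and JAK kinases passed edgeR's test in any of the 4 comparisons.

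In all, 62 of 123 listed pathway genes were tested, and none passed in the knockout comparison or the interaction, where 0.327% and 0% of all tested genes did. With E2, 1 of the 62 rose and none fell by edgeR's test, which called 1.13% of all tested genes. TRIM25, a ubiquitin ligase that activates RIG-I, was at 89.8 and 189 CPM in DMSO and E2 in the parental line, at 118 and 214 in clone 1, and at 124 and 209 in clone 2, and all E2 libraries lay above all DMSO ones. Its log2 difference was 0.89 (SE 0.12, edgeR adjusted p = 0.0283). The call was lost when any library other than clone 2 DMSO was left out, and when clone 1 or the parental line was, with log2 differences of 0.79 to 0.93 in those fits.

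Between the clones, 2 of the 62 were lower in clone 2 and none higher, with 0.871% of all tested genes called. CD74, the invariant chain of MHC class II, had 1243 and 1131 counts in parental DMSO and E2, 2197 and 1365 in clone 1, and 470 and 366 in clone 2. Clone 2 lay below the other lines, with a log2 difference from clone 1 of -1.92 (SE 0.14, edgeR adjusted p = 0.00573). SAMD9, an antiviral gene, had 23 and 17 counts in the parental line, 67 and 39 in clone 1, and 8 and 7 in clone 2, a difference of -2.62 (SE 0.37, edgeR adjusted p = 0.0448) that limma-voom did not call. Of the 22 tested genes on the list of further interferon-stimulated genes, SAMD9 was the only one that passed edgeR's test in any of the 4 comparisons.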

How the data were processed

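RNA-seq of 6 libraries was analysed from the deposited raw table, which holds a whole-number count per gene symbol and library. Per the submitters' processing notes, HISAT2, SAMtools, Subread, DESeq2 and the hg19 build were used. Their roles and versions, the annotation and the use of strand in counting are not given in the sources used here. Paralogs and genes that overlap may therefore share reads. The authors' second table holds a normalized signal. It equalled the raw count over the median-ratio size factor (0.926 to 1.19) within 5.53e-10, and entered no test. Column names write DMOS and ER, taken for DMSO and E2, because a line has 1 column of each. The files name genes by symbol, so genes are given without coordinates.

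Counts were tested in R 4.3.3 with edgeR 4.0.16 (filterByExpr on 4 groups, TMM, quasi-likelihood test, Benjamini-Hochberg adjustment over 15611 genes at 0.05). Models held treatment and genotype, their product for the interaction, or treatment and line for clone 2 against clone 1. Standard errors are the log2 difference over the square root of F. Single-library log2 ratios used a prior count of 2. Scripts were tested on simulated data. Libraries of 1 line were taken as independent. Clone numbers pair them, since DMSO and E2 libraries come from the same line. The difference between the clones correlated at 0.626 across genes between treatments. The replicate block was line, fixed for E2 and the interaction, and random (limma 3.58.1, duplicateCorrelation) for the knockout.

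Alternatives were DESeq2 1.42.0, limma-voom, median-ratio and library-total scaling, other filters, a GC and length correction with and without the block, and leaving out each library or line. Other scalings of the counts of direction were chosen after seeing the data. Members and lists were chosen with earlier results of these data known. Library values are given for up to 4 members per direction and comparison with the largest log2 difference at a mean of at least 2 CPM, for leading genes of each role, and for pathway genes that passed a test. A further pathway gene is not reported here. RefSeq promoter windows were matched by symbol.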

Additional observations from a re-analysis of the deposited data

Results flagged for a closer look

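The E2 effect on B2M was called as different between the clones and the parental line in the fit with line as a replicate block, but not in the main fit. With the block, the interaction was 1.14 on the log2 scale (edgeR adjusted p = 0.000463). That fit has 1 residual degree of freedom and called 15.8% of all genes and 1 of the 27 members, or 3.7%. In the main fit B2M had the same interaction, 1.14, with an edgeR adjusted p of 0.617, and 0 genes were called. Over the 13 alternatives to the main fit the value for B2M ran from 0.79, with the GC and length correction, to 1.25, without clone 1 in DMSO. The adjusted p was below 0.05 in 3 of the 13, namely the block just given, the block with that correction (edgeR, 0.00665) and DESeq2 (0.0276). B2M stood at 398 CPM in parental DMSO and 190 in parental E2, and at 288 and 262 in clone 1 and 242 and 298 in clone 2.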

How the results depend on the processing

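Alternatives changed which members were called more than they changed directions. Of the alternative values for single named genes, 482 kept direction and side of the threshold, 40 crossed to a call, 8 lost it and 4 reversed. The named genes here include TRIM25, CD74 and SAMD9 from outside the members. All 8 losses were of TRIM25 or SAMD9, since no member had a call to lose in a main fit. DESeq2 called 1 member for the knockout (IFITM1, among 454 genes, against 51 by edgeR), 1 for E2 (IFIT1, among 1115, against 176) and 1 for the interaction (B2M, among 29). The replicate block called 1 member for the interaction (B2M, among 2470 genes) and 0 for E2 (384 genes) and the knockout (46 genes), and with the GC and length correction it called 2 for the interaction (B2M and BST2, among 2042 genes) and 1 for E2 (HLA-B, among 720). No paired analysis was possible for clone 2 against clone 1, because line is the factor compared there. With libraries or lines left out, members called ran from 0 to 5 for the knockout, 0 to 12 for E2 and 0 to 10 between the clones, the 10 without parental DMSO (among 2754 genes) or without parental E2 (among 2744). These fits have 1 or 2 residual degrees of freedom. The E2 log2 difference of USP18 then ran from -0.094 (without clone 2 in E2; -0.01 without clone 2) to 0.47, and that of HERC5 from -0.012 (without parental DMSO; -0.004 without the parental line) to 0.51. The member median of clone 2 over parental in DMSO was -0.22 with library totals and -0.62 over the 18 members at 2 CPM or more, against -0.43, and in E2 it was 0.0013 over those 18, against 0.22. With library totals, 5 members in place of 8 lay below clone 1 in clone 2, and 3095 in place of 3782 of all tested genes. The causes were not tested. The interaction without a parental library, the parental line or a clone, the knockout without the parental line and the clone comparison without a clone could not be fitted. Depth limits the members with fewer than 20 counts in a library, IFIT5, ISG20, OASL, IFI35 and HLA-B.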
